A study of Mus musculus with 13 samples.

Results

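The brain hemispheres of the 7 untreated mice of this series were described as a baseline transcriptome, by gene and by mouse. The members were the 7 arrays titled as untreated, of 13 mice in all, and every probe set that is not a control of the array was used, 45037 of 45101. All mice were male, of the strain C3HeB/FeJ, and were 10 to 12 weeks old when the feeding regimen began. The untreated mice received equicaloric pellets without creatine for 6 months; the other 6 mice received pellets with 1% creatine over the same time and enter no value given here. Total RNA of 1 hemisphere per mouse was hybridised to 1 Affymetrix array, so each mouse gave 1 value per probe set. The labels call the samples biological replicates, and they were treated as separate mice; animal-to-animal and array-to-array spread cannot be told apart with 1 array each.

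A brain hemisphere is a mixture of regions and of cell types. Neurons signal through synapses, astrocytes take up transmitter and ions, oligodendrocytes wrap axons in myelin, microglia are the resident immune cells, and the choroid plexus secretes cerebrospinal fluid. Each region carries its own transcripts. Granule and Purkinje cells define the cerebellum, mitral and periglomerular cells the olfactory bulb, and medium spiny neurons the striatum. A transcript confined to a small region therefore enters the hemisphere's RNA in proportion to how much of that region the sample holds and how much RNA its cells carry.

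The values were whole-number intensities, and no detection calls were used. Intensities of different probe sets also depend on the probes, so the order of genes below is an order of signals and not of transcript amounts. A gene was represented by its probe set of highest mean; 34945 probe sets carried a single symbol and stood for 18193 genes. An intensity can be placed against the following levels. The median of each array lay between 41 and 45, and 71 genes known from other organs (liver, muscle, testis, retina, gut and lymphocytes) had a median mean intensity of 10.7, with 95% of them under 51.5 and the highest, the skeletal actin gene Acta1, at 121. Spread is the standard deviation (SD) of log2(intensity + 16) over the 7 mice.

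The 7 arrays were close to each other in general measures. The upper quartile of intensity ranged from 170 to 173, the 3'/5' signal ratio of the actin control from 1.53 to 1.72 and the correlation of 1 array with another, over all probe sets, from 0.975 to 0.982. One library stood apart in content. In untreated replicate 3, called mouse 3 below, all 13 cerebellar list genes with a mean of at least 100 were at their lowest, and Gabra6, Pcp2, Cbln3, Fat2 and En2 were within the range of genes from other organs. Its actin ratio was 1.71, with mouse 6 at 1.72 and the other 5 mice lower. Of 8813 genes with a mean of at least 100, 48 lay in mouse 3 below all other mice and at least 1 on the log2 scale below their median (0.545%), and 6 lay as far above (0.0681%). In mouse 6 there were 6 genes that far below (0.0681%), and the other counts were 0 or 1 gene per mouse and direction (0% or 0.0113%). Over the same 8813 genes, the share for which a mouse was the highest of the 7 ran from 8.91% in mouse 4 to 22.5% in mouse 3, and the share for which it was the lowest from 8.62% in mouse 5 to 20.8% in mouse 2. Several values that rest on mouse 3 are given with and without it, and others only with it. In a whole hemisphere, fewer cells of a type and less RNA per cell cannot be told apart.

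The brightest signals came from myelin, cytoskeleton, synapse and ribosome genes. Mbp, which encodes myelin basic protein, had the highest mean, 10796, with a lowest value of 9864, a median of 10467 and a highest of 12936. Rps29, a protein of the small ribosomal subunit, followed at 10374, between 9607 and 11054. Actb (cytoplasmic actin), Snap25 (a protein of synaptic vesicle fusion), Atp1b1 (a subunit of the sodium pump), Fth1 (ferritin heavy chain) and Eef1a1 (an elongation factor) came next, with means from 8366 to 8940. The 25 brightest genes also held the chaperone Hspa8, the mitochondrially encoded complex I subunit ND5, the secreted proteins Ptgds, Cst3 and Apoe, the amyloid precursor gene App and the motor protein gene Kif5a. Mouse 7 was highest for 20 of these 25 genes, against 14% of all genes with a mean of at least 100. That count was 14 when each array was divided by its median and 1 after quantile normalization, so the order of the mice among the brightest genes depended on the scaling.

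Ttr had the widest spread among the 25 brightest genes. It encodes transthyretin, which the choroid plexus secretes. Its intensity was 4689 in mouse 4, had a median of 8425 and reached 11227 in mouse 7, with an SD of 0.41. The other 24 of the 25 brightest genes had SDs between 0.02 (Selenow) and 0.15 (Atp1b1). The other 3 probe sets of Ttr followed the first over the mice with r of 0.992, 0.977 and 0.974. Their SDs were wider, at 0.48, 0.45 and 0.80, so the size of the spread depended on the probe set.

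**Figure D1:**
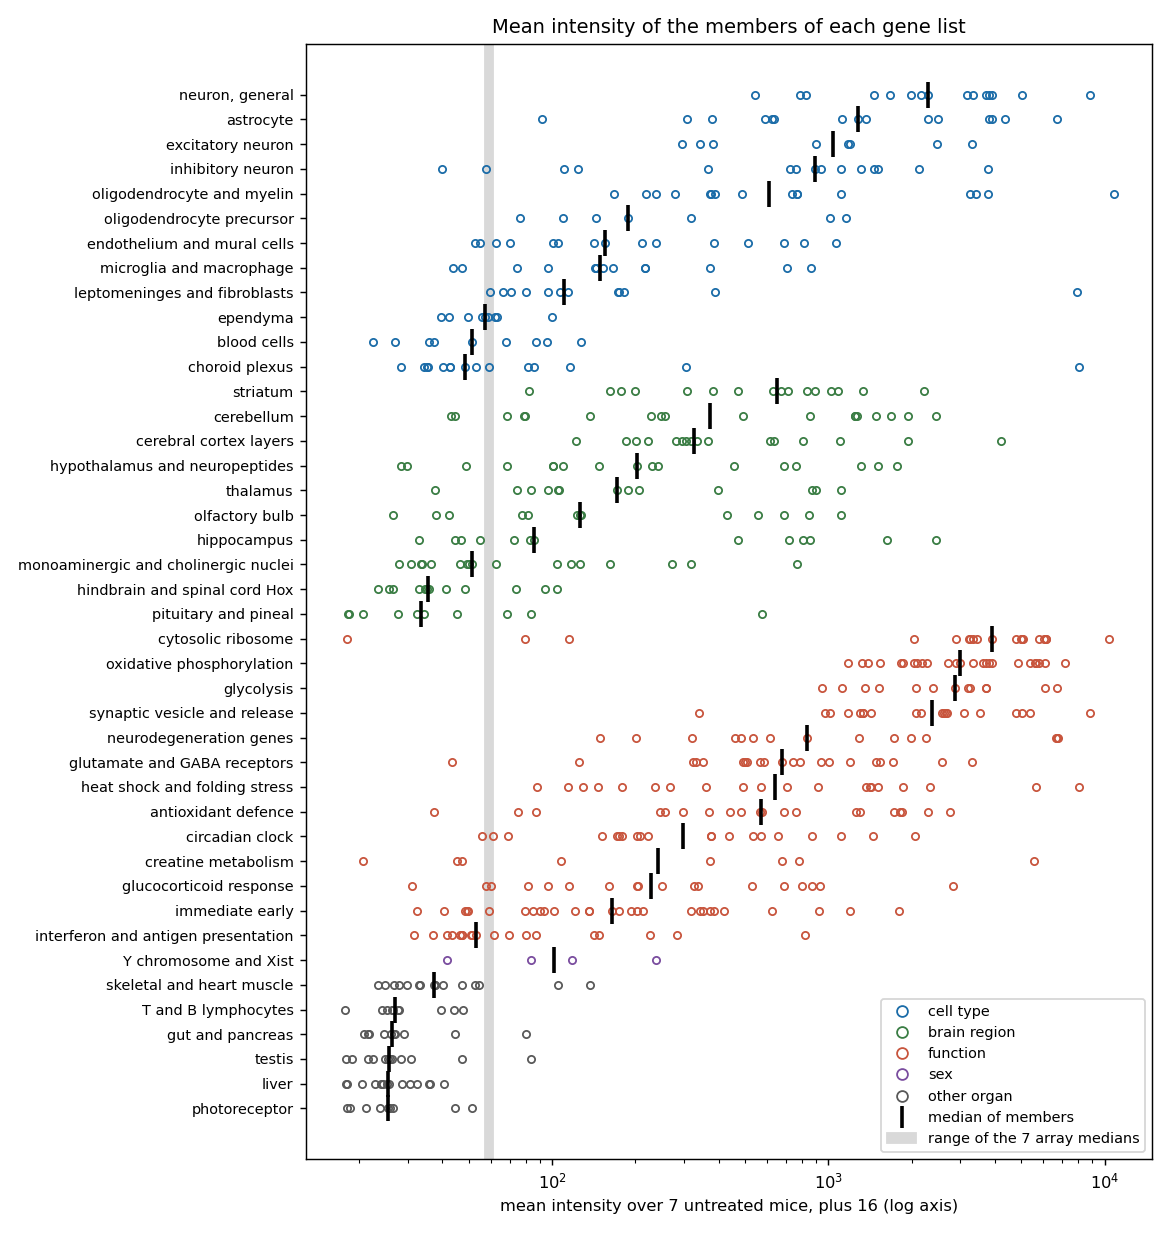
Mean intensity over the 7 untreated mice plus 16 (log axis) of each measured member of 42 gene lists; a point is a gene, a black bar the median of a list, and the grey band the range of the 7 array medians. Ribosome, respiratory and glycolytic genes lie mostly above 1000, and genes of other organs lie mostly left of the band.

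Neuronal, astrocytic and oligodendroglial genes were nearly all above the array median in all 7 mice, and genes of ependyma and choroid plexus mostly were not. Of all 18193 genes 10295 were above it in every mouse (56.6%). Over 12 cell type lists 112 of 150 measured members were above it, over 10 region lists 88 of 145, and over 13 lists of functions 213 of 247. Over the 6 lists of other organs 3 of 71 were above it. The plot of list members shows the same order, with synaptic, respiratory and ribosomal genes to the right and genes of other organs to the left of the array medians.

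All 15 general neuronal genes were above the array median. Syt1, the calcium sensor of transmitter release, ranged from 4649 through a median of 5015 to 5541, highest in mouse 3. Map2, a dendritic microtubule protein, ranged from 3704 to 4145 around a median of 3892. The widest of this list was Nefh, the heavy neurofilament subunit of large axons, from 562 through 780 to 1103 (SD 0.33), highest in mouse 7 and lowest in mouse 4. Excitatory neuron genes were above the median in 8 of 8 cases, among them Gria2 (an AMPA receptor subunit, 2998 to 3617) and Camk2a (a synaptic kinase, 1972 to 2754). Inhibitory neuron genes were above it in 13 of 15. Gad1, which makes GABA, ranged from 3538 to 3978. Pvalb, a calcium-binding protein of fast-spiking interneurons and of Purkinje cells, had a lowest value of 890 in mouse 3 against 1884 to 2915 in the other 6, and its SD was 0.54 with mouse 3 and 0.21 without it. Dlx2 (mean 41.3) and Cort (23.7) were the 2 members not above the median.

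Glial genes were as evenly present. All 15 astrocyte genes were above the array median: Aldoc, an aldolase of astrocytes and of some Purkinje cells, ranged from 5916 in mouse 3 to 7397 in mouse 7, Glul (glutamine synthetase) from 3599 to 4801, and Sox9, a transcription factor and the dimmest member, from 54 to 111. All 16 oligodendrocyte genes were above it. Cnp, a myelin enzyme, ranged from 3430 to 4097, and Myrf, the transcription factor of myelination, from 106 to 198 (SD 0.30). Mouse 7 was highest for 12 of these 16 genes, where it was highest for 14% of all genes. The count was 10 after quantile normalization (14.2% of all genes) and 6 with each array divided by its median (6.35%). The 7 precursor genes were above the median too, with Pdgfra, the receptor that marks these cells, between 258 and 326.

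Microglial, vascular and border genes were dimmer. Csf1r, the growth factor receptor on which microglia depend, ranged from 806 to 927, and C1qa, a complement protein, from 294 to 415. Trem2 (mean 31.0) and Itgam (27.6), also microglial, were not above the array median in all mice. Itm2a (959 to 1112), Rgs5, a pericyte gene (774 to 829, SD 0.03), and Slc2a1, the glucose transporter of the barrier (617 to 723), were the brightest vascular genes. Pecam1, Cdh5 and Vwf, all of endothelium, had means of 54.1, 36.4 and 46.3 and were not above the median in all 7 mice. Of 9 ependymal genes only Rarres2 was above it in every mouse, at 68 to 101, and Foxj1, the master factor of motile cilia, had a mean of 33.4. In the choroid plexus list 3 of 15 members were above it, and the defining channel and transporter genes Aqp1 (26.6), Kcne2 (18.4) and Slc4a5 (12.4) were not.

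Regions differed in how many of their genes were above the array median. All 16 cortex layer genes and all 16 striatal genes were above the array median, with Pcp4 between 3889 and 4480, Mef2c between 1570 and 2418, the striatal phosphoprotein gene Arpp21 between 1863 and 2658, and Penk, the precursor of enkephalin, between 1236 and 1456. In the hippocampal list 9 of 13 were above it; Prox1, the granule cell factor of the dentate gyrus, had a mean of 38.6. In the cerebellar list 8 of 18 were above it in all 7 mice, and Gabra6, Pcp2, Cbln3, En2 and Fat2 failed this count through mouse 3 alone. In the list of monoaminergic and cholinergic nuclei 7 of 17 were above it. Aldh1a1 ranged from 573 to 933 and Ddc, which decarboxylates L-DOPA, from 181 to 301, whereas Tph2 (35.0) and Slc6a4 (33.0) of serotonin neurons and Chat (20.4) of cholinergic neurons lay under the array median on average. Pituitary hormone genes were near the floor: Gh had a mean of 16.4 and Prl of 4.57.

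The listed genes of energy metabolism and of the ribosome were mostly bright and varied little. All 25 respiratory chain genes had means of at least 1000, led by Cox6a1 (6731 to 7615), Cox4i1 (5752 to 6434) and Cox7a2 (5441 to 6241), all subunits of cytochrome oxidase, and the median SD of the list was 0.07. All 13 glycolytic genes were above the array median, and the pyruvate kinase gene Pkm ranged only from 3577 to 3775. Mouse 7 was highest for 15 of the 25 respiratory genes (14% of all genes), 12 after quantile normalization (14.2%) and 5 with each array divided by its median (6.35%). Ribosomal protein genes had a median mean of 3894 and a median SD of 0.05; 1 of 19 was not above the array median, Rps16, which was at 6 or less in every mouse. Ribosomal protein genes have many near-identical copies, and whether this probe set reads the gene was not tested.

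Creatine genes were of interest because the study fed creatine, and here they are given for mice without it. Creatine is made from arginine and glycine, enters cells through a transporter and is phosphorylated by creatine kinases, which buffer ATP. Ckb, the brain-type kinase, ranged from 5333 through 5408 to 5835 (SD 0.05), and Ckmt1, the mitochondrial kinase of brain, from 732 through 774 to 813. The transporter gene Slc6a8 ranged from 630 to 717. Gatm, which encodes the first enzyme of synthesis, ranged from 330 through 345 to 419, and Gamt, which encodes the second, from 76 through 91 to 107. The muscle-type kinases Ckm (mean 31.3) and Ckmt2 (4.57) and the transporter gene Slc16a12 (29.1) were under the array median on average. All 5 members above the median in every mouse had SDs of at most 0.14.

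Synaptic genes had a median SD of 0.10 and receptor genes one of 0.16, where the median over all genes with a mean of at least 100 was 0.11. Without mouse 3 the median SD was 0.09 for the synaptic list and 0.11 for the receptor list. The value over all genes includes mouse 3. All 20 vesicle and release genes were above the array median; Dnm1, the dynamin of vesicle retrieval, ranged from 5204 to 5524 (SD 0.03). Of 21 receptor genes 19 were above it. Gabbr1, a subunit of the GABA-B receptor, ranged from 2321 to 2723. Gabra6 had the widest spread of the receptor list and is described with the cerebellum.

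Genes that respond to activity, light cycle or stress were not uniformly wide. Of 29 immediate early genes 22 were above the array median, and the median SD of the 23 with a mean of at least 50 was 0.18. Egr1, an activity-induced transcription factor, ranged from 1407 in mouse 7 through 1722 to 2260 in mouse 3. Arc, an activity-induced synaptic gene and the widest member (SD 0.39), ranged from 95 in mouse 2 through 148 to 242 in mouse 3. Dbp, a clock output factor, had the narrowest spread in its list, from 1035 to 1125 (SD 0.04), and the clock repressor gene Cry1 the widest, from 91 to 204. Among genes that answer glucocorticoids, Mt1 ranged from 2532 to 3115 and Cdkn1a from 53 to 129, the latter highest in mouse 3. The chaperone genes Hspa8 and Hsp90aa1 had SDs of 0.11 and 0.06. In the interferon and antigen presentation list 6 of 19 were above the median, led by B2m at 708 to 919.

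The mice were labelled male, and 3 Y-linked genes were above the array median in every mouse. Eif2s3y ranged from 170 in mouse 7 through 222 to 249, Kdm5d from 79 to 116 and Uty from 52 to 82. Xist, the transcript of the inactive X chromosome, ranged from 13 to 33, under the array median in all 7 mice. Among genes of other organs, Acta1 ranged from 75 to 212, highest in mouse 5, Prm1 of sperm from 30 to 92 and Cela1, a pancreatic elastase, from 47 to 80. No gene of the liver, photoreceptor and lymphocyte lists was above the median in all mice.

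Spread depended on intensity. The median SD over all 45037 probe sets was 0.21. It was 0.28 for probe sets with a mean under 50, 0.18 from 50 to 200, 0.11 from 200 to 1000, 0.08 from 1000 to 5000 and 0.07 from 5000 upwards. Of the 8813 genes with a mean of at least 100, 50 had an SD of at least 0.5 (0.567%), and 11 had one without mouse 3 (0.125%). The narrowest among the 1165 genes with a mean of at least 1000 was Rplp0, a ribosomal stalk protein, between 1997 and 2053 (SD 0.02). Mbnl2, a splicing factor (1653 to 1721), Nbr1, an autophagy receptor (1309 to 1359), Ctnnb1, which encodes beta-catenin (3775 to 3942), and Gnai1, a G protein subunit (2424 to 2529), were also among the 10 narrowest. This order depended on the scaling: after quantile normalization the SD was 0.026 for Rplp0, 0.018 for Mbnl2 and 0.019 for Bnip3, and with each array divided by its median it was 0.060 for Rplp0. No mouse stood apart in Rplp0 as deposited, where mice 4 and 5 were highest and mice 7 and 2 lowest.

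**Figure D2:**
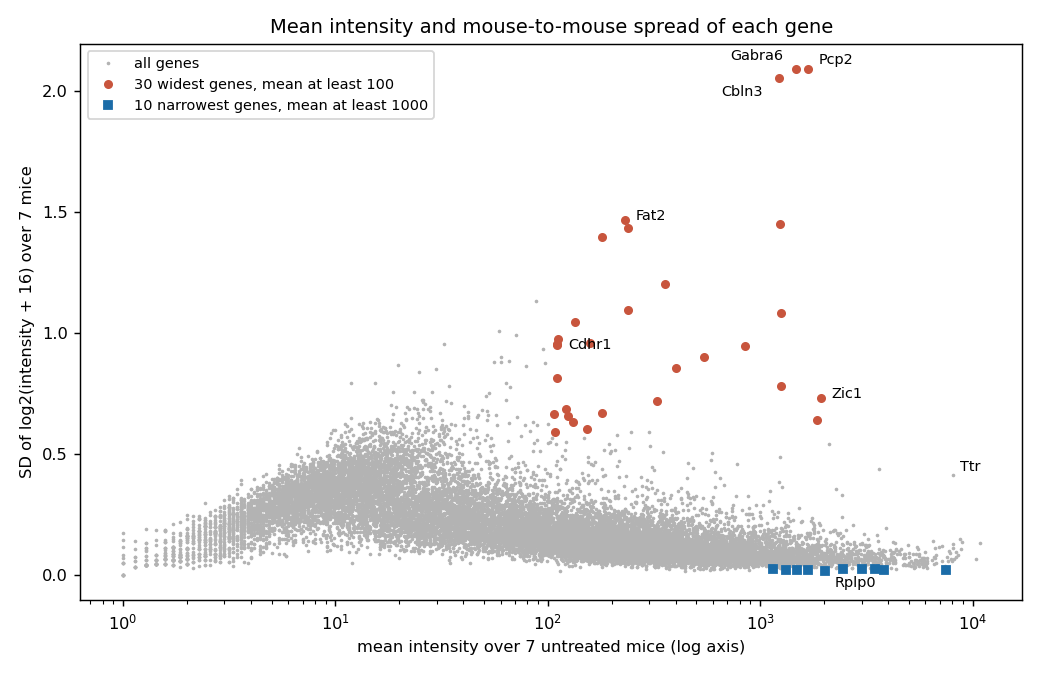
Mean intensity (log axis) and SD of log2(intensity + 16) over the 7 untreated mice, 1 point per gene with a mean of at least 1. Red circles are the 30 widest genes with a mean of at least 100, blue squares the 10 narrowest with a mean of at least 1000; Pcp2 and Gabra6 lie at an SD of 2.09, Rplp0 at 0.02.

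The 30 widest genes held Pcp2, Gabra6, Cbln3, Fat2, Car8, En2, Cbln1, Neurod1, Zic1 and Slc1a6, which are given here with the cerebellum. Mouse 3 was the lowest in each of them. Gabra6, the GABA receptor subunit of cerebellar granule cells, was at 22 in mouse 3 and between 1248 and 2494 in the other 6, a difference of -5.49 from their median on the log2 scale. Pcp2, a Purkinje cell protein, was at 27 in mouse 3 and between 1496 and 2881 in the others (-5.41). Cbln3, a granule cell protein of the cerebellin family, was at 18 against 1059 to 2189 (-5.36). In Gabra6, Pcp2 and Cbln3 mouse 3 lay below all others, as it did for 14.9% of all genes with a mean of at least 100. Its values in these 3 genes lay among those of genes from other organs, whose median in mouse 3 was 11 with 95% under 58. The second probe sets gave the same picture: 7 against 430 to 868 for Gabra6 and 2 against 511 to 852 for Pcp2.

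Other genes of the cerebellum were also lowest in mouse 3. Fat2, a giant cadherin of granule cells, was at 4 against 192 to 393, and En2, a homeobox gene of the cerebellum and midbrain, at 25 against 204 to 395. Car8 of Purkinje cells was at 90 against 982 to 2227 and the synapse organiser Cbln1 of granule cells at 193 against 1091 to 2039. Slc1a6, the Purkinje cell glutamate transporter, was at 52 against 167 to 286. The next genes are also used by other regions. Neurod1 was at 169 against 731 to 1461, Zic1 at 603 against 1542 to 2987, Calb1 at 1485 against 2165 to 3022, and Gabrd at 340 against 439 to 557. Mouse 3 was the lowest mouse for all 13 cerebellar list genes with a mean of at least 100, where it was lowest for 14.9% of all such genes. Without mouse 3 the SD of Gabra6 was 0.35, of Pcp2 0.33 and of Cbln3 0.36, and no member of the list had an SD of 0.5 or more, against 11 with it.

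Mouse 2 lay at the other end. It was highest for all 13 of these genes (14.6% of all genes; 12 of the 13 with each array divided by its median), with 2494 for Gabra6 where the next, mouse 1, had 1782. The summed intensity of the 18 measured cerebellar genes was 21473 in mouse 2, between 11635 and 15559 in mice 1, 4, 5, 6 and 7, and 3182 in mouse 3.

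Promoter sequences are shown for 2 genes that were low in mouse 3, Gabra6 and Cbln3, and for 2 that were high in mice 3 and 6, Cdhr1 and Doc2g, because the values of each pair lay in a like order over the mice. They are the 250 bases before the annotated start, from RefSeq on GRCm38.p6, written 5′ to 3′ on the strand of the gene. Capitals mark TTGGC, the core letters of sites for nuclear factor I proteins, or its reverse complement GCCAA, and CAGATG, one form of the E-box, or its reverse complement CATCTG.
Gabra6 (chr11:42321073-42321322, minus strand): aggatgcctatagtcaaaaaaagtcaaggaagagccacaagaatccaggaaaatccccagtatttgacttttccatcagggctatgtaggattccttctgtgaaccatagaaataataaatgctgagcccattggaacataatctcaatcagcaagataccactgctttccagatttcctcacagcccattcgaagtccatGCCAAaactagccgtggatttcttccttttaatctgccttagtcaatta
Cbln3 (chr14:55884257-55884506, minus strand): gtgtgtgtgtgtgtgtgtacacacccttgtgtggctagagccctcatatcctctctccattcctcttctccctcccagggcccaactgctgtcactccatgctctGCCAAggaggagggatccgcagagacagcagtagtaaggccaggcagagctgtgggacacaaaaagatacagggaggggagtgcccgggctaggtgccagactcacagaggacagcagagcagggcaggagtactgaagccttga
Cdhr1 (chr14:37098348-37098597, minus strand): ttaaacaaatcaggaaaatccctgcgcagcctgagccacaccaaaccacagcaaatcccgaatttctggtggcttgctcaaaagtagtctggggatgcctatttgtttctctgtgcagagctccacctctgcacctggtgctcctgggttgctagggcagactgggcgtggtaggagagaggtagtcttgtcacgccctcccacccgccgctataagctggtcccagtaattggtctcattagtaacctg
Doc2g (chr19:4003135-4003384, plus strand): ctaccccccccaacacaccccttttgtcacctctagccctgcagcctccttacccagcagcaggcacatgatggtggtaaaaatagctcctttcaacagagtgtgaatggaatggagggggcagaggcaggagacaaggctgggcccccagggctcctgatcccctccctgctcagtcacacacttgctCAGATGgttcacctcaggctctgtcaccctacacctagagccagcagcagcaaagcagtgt
Gabra6 and Cbln3 each held 1 match to TTGGC or its reverse complement, with the first base at -49 and -145 from the start. Such a match stood in 41.5% of the 32851 promoter windows of this length. Cdhr1 and Doc2g held none. Doc2g held 1 match to CAGATG, at -61, present in 14.4% of windows, and none of the 4 held TATAAA or its reverse complement, present in 12.4%. A match describes letters only, and no match says only that these letters are not in the window.

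**Figure D3:**
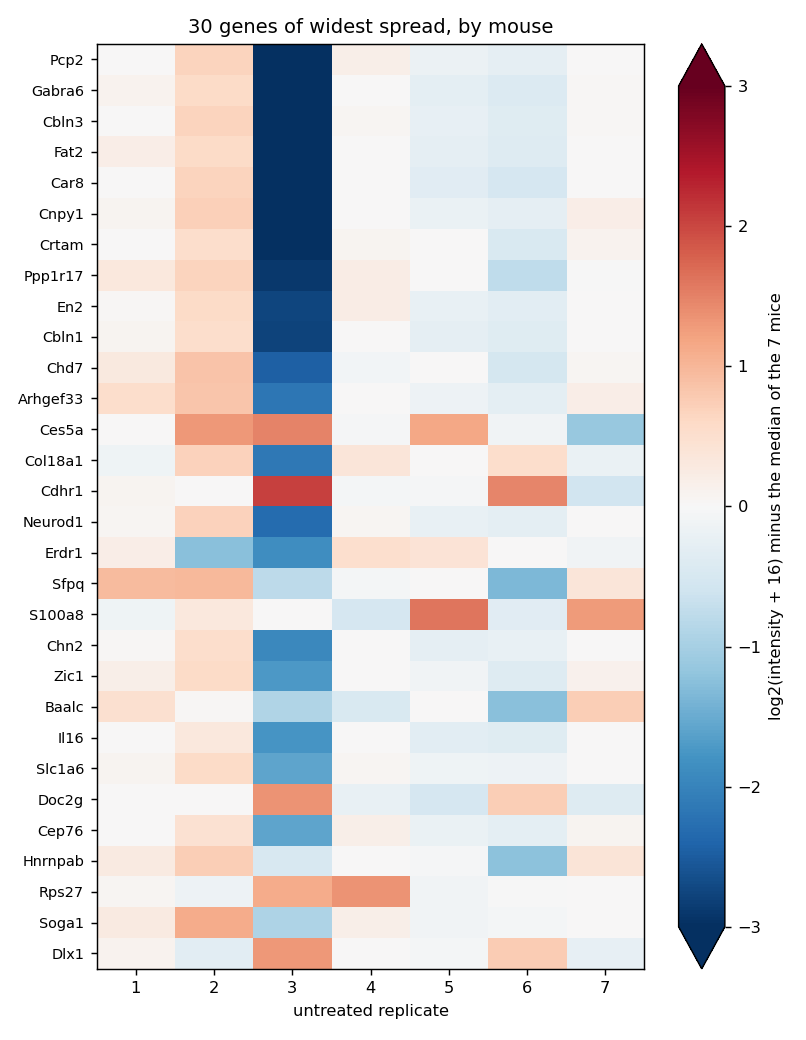
Difference of log2(intensity + 16) from the median of the 7 mice for the 30 genes of widest spread with a mean of at least 100, ordered by SD; columns are untreated replicates 1 to 7, colours beyond -3 and 3 are saturated. Mouse 3 is lowest for 21 of the 30 genes and mouse 2 highest for 22.

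Olfactory bulb genes were high in mouse 3 and, next, in mouse 6. Cdhr1, a cadherin of mitral and tufted cells, was at 302 in mouse 3, 195 in mouse 6 and between 36 and 66 in the other 5. Doc2g was at 239, 153 and 55 to 86 in the same order. Dlx1, a transcription factor of interneurons and their precursors, was at 227, 149 and 63 to 89. Th, which makes catecholamines in periglomerular cells and in the midbrain, was at 215 in mouse 3, and mouse 6 with 111 did not stand out from mouse 4 with 117. Mouse 3 was highest for 6 of the 8 bulb list genes with a mean of at least 100, where it was highest for 22.5% of all such genes; Calb2, which is also cerebellar, was lowest there at 717. Without mouse 3 the SD of Cdhr1 was 0.68, with mouse 6 then the highest.

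Genes of several other lists were most often highest in mouse 3. Mouse 3 was highest for 13 of 15 striatal genes, 10 of 16 cortex layer genes and 8 of 10 hypothalamic and neuropeptide genes, against 22.5% of all genes. It was also highest for 12 of 20 receptor, 7 of 12 inhibitory neuron, 6 of 10 microglial and 9 of 20 synaptic genes. Mouse 2 was lowest for 10 of 15 striatal, 10 of 16 cortical and 4 of 10 hypothalamic and neuropeptide genes, where it was lowest for 20.8% of all genes; mouse 1 was lowest for another 4 of those 10. The striatal, cortical and hypothalamic counts for mouse 3 were 13, 9 and 7 after quantile normalization and 13, 12 and 8 with each array divided by its median. Dividing by the median also moved the shares over all genes, to 32.8% highest in mouse 3 and 36.1% lowest in mouse 2. The 4 genes named next differed by less than Gabra6, Pcp2 and Cbln3, though not by less than every gene of the cerebellar list. Tac1, the precursor of substance P, was at 1243 in mouse 3 and 754 to 906 in the others, Npy at 1028 against 539 to 834, and Dcx, a protein of migrating young neurons, at 728 against 361 to 468. Drd1, the dopamine receptor of the direct pathway, was at 369 against 230 to 316. Mouse 3 was the highest in all 4, where it was highest for 22.5% of all genes with a mean of at least 100. These 4 genes are named examples and not a count over a list. The median member of the striatal list lay 0.25 above the median mouse in mouse 3 and differed by -0.15 in mouse 2 on the log2 scale, where the median cerebellar member differed by -2.01 and by 0.57.

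**Figure D4:**
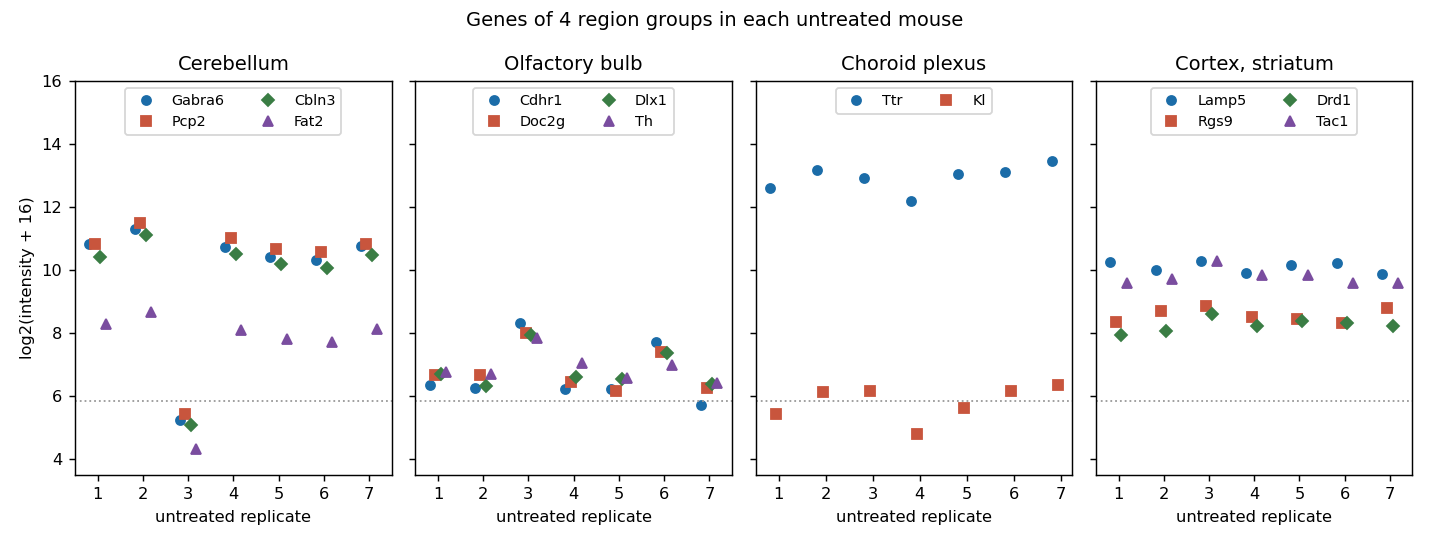
Log2(intensity + 16) of genes of the cerebellum, olfactory bulb, choroid plexus, and cortex and striatum in each untreated replicate; a point is a mouse and the dotted line marks the median of the 7 array medians. Cerebellar genes fall to or under the line in mouse 3 only. Of the bulb genes, Cdhr1, Doc2g and Dlx1 are highest in mice 3 and 6, and Th in mouse 3, with mouse 4 next.

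Mice 3 and 2 also lay at the ends of the main axis of variation. Principal component 1 of the probe sets with a mean of at least 50 held 35.6% of the variance, with mouse 3 at 29.4, mouse 6 at 13.0 and mouse 2 at -20.8. Component 2 held 17.2% and component 3 held 14.6%; on component 2, mice 7 and 6 lay at 17.4 and 14.3.

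Choroid plexus genes had another order of mice. Ttr was lowest in mouse 4 and next lowest in mouse 1, at 4689 and 6161, and highest in mouse 7. Kl, the anti-ageing receptor gene of the choroid plexus and kidney, was at 12 in mouse 4, 27 in mouse 1 and 65 in mouse 7. Sostdc1 was at 34, 50 and 116 in these 3 mice, and Clic6 at 68, 89 and 144. Igfbp2, which other cells also express, ranged from 254 to 342. The median member of the list with a mean of at least 50 differed by -0.47 in mouse 4 and by 0.41 in mouse 7 from the median mouse. All but Ttr and Igfbp2 were dim, with means under 100.

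Neutrophil genes were high in mice 5 and 7. S100a8, a calcium-binding protein of neutrophils, was at 251 and 196 there and between 46 and 94 in the other 5. S100a9, its partner, was at 177 and 125 against 9 to 68, and Ngp, a granule protein, at 116 and 73 against 17 to 47. Alas2, which makes heme in red cell precursors, did not follow them, with 52 and 87 in mice 5 and 7 and 117 in mouse 6. Genes of hindbrain and spinal cord were dim and variable. Slc6a5, the glycine transporter of inhibitory neurons there, was at 1 in mouse 3, 55 and 58 in mice 4 and 6, and 161 in mouse 7. Hoxb5 was at 1 in mice 3 and 4, 19 in mouse 6 and 64 in mouse 7, and Glra1, a glycine receptor subunit, at 21 in mouse 3 and 127 in mouse 7. The summed intensity of this list of 12 genes was 139 in mouse 3, 215 in mouse 4 and 657 in mouse 7.

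The other wide genes had several orders of mice; Malat1 and Ercc1 were added after their values were seen. Sfpq and Hnrnpab, which encode nuclear RNA-binding proteins, were at 126 and 751 in mouse 6 and reached 690 and 2958 in mouse 2. Baalc was at 132 in mouse 6 and 576 in mouse 7, and Malat1, a nuclear long non-coding RNA, at 2099 in mouse 6 and 5263 in mouse 1. The probe sets of these genes did not all say the same. The second brightest of Hnrnpab ranged only from 1292 to 1506 and was related to the first with r = -0.692 over the mice, and the one of Sfpq ranked 3 by mean ranged from 328 to 400 (r = -0.12), whereas those of Sfpq ranked 2 and 4 followed the first with r of 0.926 and 0.966. The next 2 of Malat1 followed its brightest (r of 0.947 and 0.906), as did the next 2 of Baalc (0.926 and 0.945). Those of Malat1 ranked 4, 5 and 6 by mean followed it less, with r of 0.103, 0.46 and 0.122. The one of Malat1 ranked 7 had r of 0.885. The one of Baalc ranked 4 was dim, with a mean of 10.1 (r = 0.54). Ces5a ranged from 35 to 296 and Erdr1 from 149 in mouse 3 to 835 in mouse 4. Their other probe sets were dim and did not follow these. Those of Ces5a lay at 17 to 32 and 11 to 48 (r of -0.297 and -0.285), and that of Erdr1 at 3 to 23 (r = -0.147). Rps27 was at 219 and 259 in mice 3 and 4 and between 81 and 96 elsewhere, and Ercc1 was at 79 in mouse 2 against 175 to 236.

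Separate probe sets of a gene moved together most closely where the spread was wide. For 2040 genes with 2 probe sets of a mean of at least 200, the median Pearson r between them over the 7 mice was 0.26. It was 0.185 where the first had an SD under 0.1, 0.323 from 0.1 to 0.2, 0.606 from 0.2 to 0.5 and 0.987 for the 11 genes with an SD of at least 0.5. The points of these correlations share the same 7 arrays, and 8 of the 11 genes were among the 48 low in mouse 3. The other 3 were Sfpq, Baalc and Hnrnpab.

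Pairs of genes of like function or cell were set against each other over the mice; 25 of 28 pairs had both genes measured. With the exact permutation test, 2-sided, and Benjamini-Hochberg adjustment over the 25 pairs, 3 had an adjusted p under 0.05, and 6 had an unadjusted one. By Spearman's rho none of the 25 passed after adjustment. Gabra6 and Pcp2 were among the 3, but mouse 3 lay alone, so the relation is given within the other 6 mice: r = 0.950 (exact permutation p = 0.0097, adjusted over the 25 pairs 0.122) and rho = 0.829 (p = 0.058).

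Kl was dim, with a mean of 43.1, within the range of the array medians (41 to 45). Ttr and Kl were related over all 7 mice with r = 0.923 (exact permutation p = 0.0032, adjusted 0.0397) and rho = 0.821 (p = 0.034, adjusted 0.284). Without mouse 3, r was 0.960 (exact permutation p = 0.0028, adjusted 0.0694), and the call was lost. Without the 2 mice whose Ttr lay farthest from its median, mice 4 and 1, r was 0.523. Taking out the most extreme mice narrows the range and can itself lower r, so this value does not show what the relation rested on. Leaving out 1 mouse at a time, r ran from 0.799 (without mouse 4) to 0.960 (without mouse 3). Doc2g and Cdhr1 had r = 0.965 (exact permutation p = 0.0050, adjusted 0.0413) and rho = 0.893 (p = 0.012, adjusted 0.154), and r = 0.535 without the 2 farthest mice, which were mice 3 and 6. Without mouse 3 alone, r was 0.916 (exact permutation p = 0.035, adjusted 0.201), and the call was lost. Mag and Mog, both myelin proteins of oligodendrocytes, had r = 0.822 (exact permutation p = 0.026, adjusted 0.165), and Dbp and Per3 of the clock 0.780 (exact permutation p = 0.033, adjusted 0.165). For Dbp and Per3, r was 0.878 with each array divided by its median (exact permutation, adjusted p = 0.0397) and 0.379 with the mean over all probe sets of each gene (adjusted p = 0.52). Pairs that did not pass the threshold included Fos and Egr1 (r = 0.435, exact permutation p = 0.32), Oxt and Avp (0.196, exact permutation p = 0.68), Gfap and Aqp4 (-0.0582, exact permutation p = 0.90) and Dbp and Arntl (-0.133, exact permutation p = 0.77). With 7 mice, a p that misses the threshold does not show that 2 genes vary apart.

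**Figure D5:**
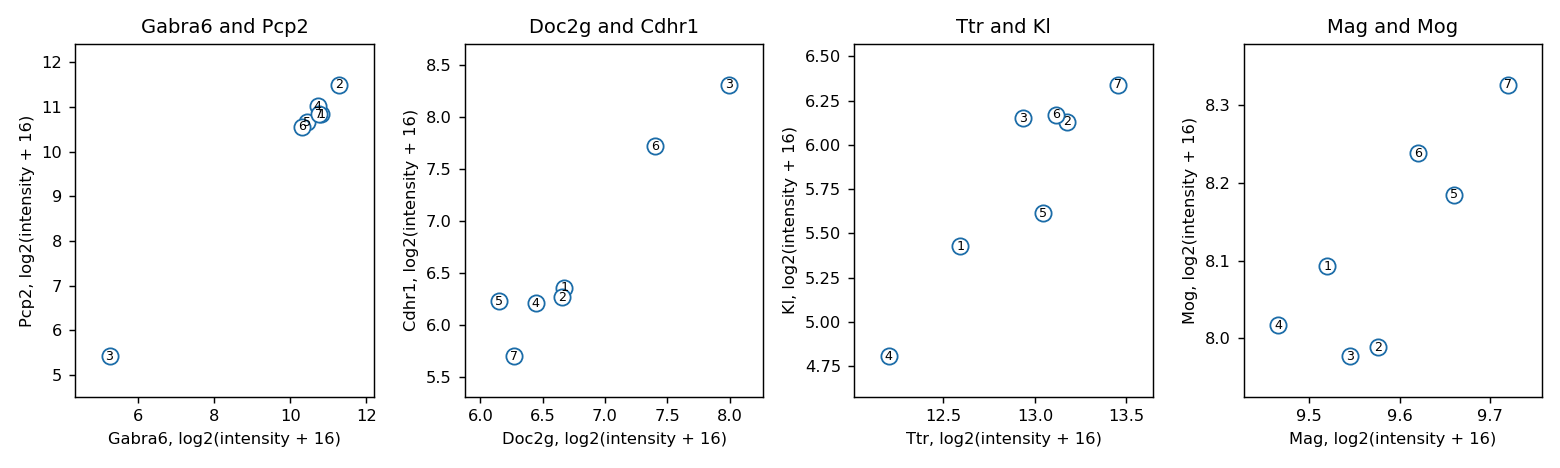
Log2(intensity + 16) of 4 gene pairs, 1 circle per untreated mouse with its replicate number. Mouse 3 lies alone for Gabra6 and Pcp2, mice 3 and 6 lie apart for Doc2g and Cdhr1, and mice 4 and 7 are at the ends for Ttr and Kl.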

How the data were processed

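Brain hemisphere RNA of 13 mice was measured on Affymetrix arrays, and the 7 untreated arrays were used here. The table was deposited by the authors as linear, whole-number intensities. The submitters' processing notes name RMA, which gives log2 values, but each untreated array had a trimmed mean (2% from each end) of about 150, so a scaling to a common mean is what the values show; the tool for that scaling is not given in the sources used here. Spread was the SD of log2(intensity + 16). Of 45037 probe sets without controls, 34945 had 1 gene symbol, 932 several and 9160 none listed; 34741 symbols were updated through gene identifiers, and 18193 genes were each represented by the probe set of highest mean. Genes named were the 25 brightest, the 30 widest with a mean of at least 100, the 10 narrowest with a mean of at least 1000, the 3 brightest and the widest (mean of at least 50) of each list with defining markers under the array median, the sex and creatine genes and the genes of each pair; other genes named were chosen after their values were seen. The members and gene lists were chosen with earlier results of these data known.

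Pairs of genes were tested over the 7 mice with exact permutation (5040 pairings) and Benjamini-Hochberg adjustment. The p-values set the correlation of 2 genes against all pairings of their values over these 7 arrays, 1 per mouse. The number of arrays limits precision. Alternatives were other offsets (1 and 50), other minimum means (50 and 500), quantile and median scaling, the mean over probe sets and leaving out each mouse. Python 3.11.15, pandas 2.3.3, numpy 2.4.6, scipy 1.17.1 and matplotlib 3.10.9 were used, and the statistics were tested on simulated data.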

Additional observations from a re-analysis of the deposited data

Results flagged for a closer look

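In 26 of 118 named genes checked, 1 of the 7 mice lay far from the rest: its gap to the next mouse, as a share of the whole range, was above Dixon's 95% critical value for 7 samples. Chance alone flags about 1 in 20 groups. Over all 8813 genes with a mean of at least 100, mouse 3 was low by this measure in 100 (1.13%) and high in 63 (0.715%). Each other mouse was low in 16 to 77 (0.182% to 0.874%) and high in 9 to 42 (0.102% to 0.477%). Of the 26, 19 were genes in which mouse 3 was low. They were Pcp2 (27), Gabra6 (22), Cbln3 (18), Fat2 (4), Car8 (90), Cnpy1 (6), Crtam (2), Ppp1r17 (36), En2 (25), Cbln1 (193), Neurod1 (169), Zic1 (603) and Slc1a6 (52), and further Chd7 (12), Arhgef33 (11), Col18a1 (11), Chn2 (343), Il16 (30) and Cep76 (34), each value being the intensity in mouse 3. Pmch, the precursor of melanin-concentrating hormone, was high in mouse 3 at an intensity of 575. Mouse 7 was high for Snap25 (10211), Fth1 (9572) and Gpm6a (8387) and low for Eif2s3y (170). Dcn, a matrix protein of the leptomeninges, was high in mouse 1 at 233, and Oip5os1 was low in mouse 5 at 2903. The genes were chosen in part for their spread, so the number flagged is a description.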

How the results depend on the processing

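The median spread over all probe sets, 0.21, was 0.325 with an offset of 1, 0.126 with an offset of 50, 0.142 over probe sets with a mean of at least 50, and 0.203 to 0.209 leaving out 1 mouse at a time. The number of genes with an SD of at least 0.5, 50, was 28 with an offset of 50, 89 with a minimum mean of 50, 12 with a minimum of 500, 18 by the median absolute deviation, and 11 (without mouse 3) to 59 (without mouse 5) leaving out 1 mouse. With an intensity of at least 100 in place of the array median, 1 of the 4 Y chromosome and Xist genes and 0 of the 71 genes of other organs were above it in all mice, against 3 and 3. The number of gene pairs past the adjusted threshold, 3, was 1 after quantile normalization, 4 with each array divided by its median, 0 without the 2 farthest mice and 0 to 1 leaving out 1 mouse. The median correlation between probe sets of a gene, 0.26, was 0.467 with each array divided by its median, 0.184 with a minimum mean of 50 and 0.332 with a minimum of 500. Of the SDs of 40 named genes, 20 moved without mouse 3, 12 with the mean over all probe sets of a gene, 10 with each array divided by its median, 2 after quantile normalization and 1 without mouse 5. The counts of mice highest or lowest under other scalings, and leaving out mice for the probe set correlations, were chosen after seeing the data. The causes were not tested. No paired analysis was possible because only the untreated group was used and no comparison between groups was made. Dim genes are limited by signal over background, with the widest spread under an intensity of 50.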
